A study of Mus musculus with 24 samples.

Results

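The ETS family transcription factors described here are 10 genes, Ets1, Ets2, Etv1, Etv4, Etv5, Elk1, Gabpa, Fli1, Erg and Elf1. They were taken by symbol from the 51912 genes of the deposited count tables. No measured value entered that rule, but earlier results of these data were known when the members were chosen. ETS proteins share a winged helix-turn-helix domain that recognises a GGAA core. Several of them are phosphorylated by the ERK kinases, so that a signal from a growth factor receptor such as an FGF receptor reaches the genome through them. In mouse embryonic stem cells (ESCs) the PEA3 group (Etv1, Etv4 and Etv5) is known as a target of FGF and ERK signalling, Gabpa serves broadly expressed and mitochondrial genes, and Fli1 and Erg are best known in blood and endothelial cells.

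The study asked which pioneer factors change DNA methylation around their binding sites, and it profiled RNA to relate such effects to the level of each factor. RNA-seq covered 3 libraries each of wild type ESCs (TC-1 line, strain C57BL/6 X 129S5), of neuronal progenitors (NPs, the same genotype and strain, obtained from the ESCs as floating aggregates given retinoic acid in the later days of the protocol) and of TET TKO ESCs (TET1/2/3 triple knockout, strain C57BL/6 X 129/sv). The ESCs and the TET TKO ESCs were kept undifferentiated. A consensus ETS motif was also among the sequences placed in a methylation reporter, which is described last.

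The libraries held 20519702 to 23976914 counts in ESCs and NPs and 80704741 to 93210102 in TET TKO ESCs, so low members were measured at greater depth in the latter. The TET TKO line differs from the ESCs in genotype, strain background and derivation, and these cannot be told apart. With its counts thinned to the depth of the ESC libraries, no member was called either, and 317 genes were called in place of 322. Tet1 had 65.9, 60.8 and 68.5 RPKM (reads per kilobase of exon, scaled to library size) in ESCs against 13.2, 16.1 and 11.3 in TET TKO ESCs, and Tet2 had 20.5, 20.3 and 16.1 against 2.42, 2.70 and 2.32. Tet3 was low in both, with 0.746, 0.631 and 0.770 RPKM against 0.561, 0.617 and 0.474. These values count all exons, and which exons the knockout removes was not used here. The 7 pluripotency markers summed to 1507 to 1541 RPKM in ESCs, 55.7 to 68.8 in NPs and 935 to 1153 in TET TKO ESCs, and all 6 neural progenitor markers rose in NPs. The NPs were aggregates, and Foxa2 and Sox17, which mark endoderm, and Col1a1, a fibroblast collagen, were also detected. The endoderm list summed to 18.7 to 22.9 RPKM in NPs against 1.07 to 1.83 in ESCs. The fibroblast list summed to 19.0, 37.3 and 3.51 in NPs 1, 2 and 3 against 5.56 to 6.78 in ESCs. Of that list Thy1 went the other way, with means of 4.86 RPKM in ESCs and 0.667 in NPs. The remaining genes of the list were higher in NPs on average, although Col1a1 and Col1a2 did not pass the limits described below (edgeR, adjusted p = 0.00795 and 0.00138). In such bulk samples fewer cells of a type and less RNA per cell cannot be told apart.

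The RefSeq promoter table (GRCm38.p6) held 12 start sites for 7 of the 10 members, Etv1, Etv5, Ets2, Elk1, Gabpa, Erg and Elf1; Ets1, Etv4 and Fli1 were not among them. Sequences are shown for Etv5, which had the largest fall in NPs, for its PEA3 relative Etv1 and for Gabpa, because each is an ETS gene whose own start can carry the letters that ETS proteins read. The first 2 windows are the 250 bases before a start site, and neither holds an annotated exon base. Capitals mark GGAA or its complement TTCC. The Etv5 window lies at chr16:22438369-22438618 on the minus strand, before the more internal of 2 Etv5 starts, and the Etv1 window lies at chr12:38779832-38780081 on the plus strand.
Etv5: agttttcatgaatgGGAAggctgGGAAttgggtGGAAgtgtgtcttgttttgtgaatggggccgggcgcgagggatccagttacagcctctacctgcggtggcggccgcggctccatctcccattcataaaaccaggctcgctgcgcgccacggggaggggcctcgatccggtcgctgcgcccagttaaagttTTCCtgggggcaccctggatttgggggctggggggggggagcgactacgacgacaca
Etv1: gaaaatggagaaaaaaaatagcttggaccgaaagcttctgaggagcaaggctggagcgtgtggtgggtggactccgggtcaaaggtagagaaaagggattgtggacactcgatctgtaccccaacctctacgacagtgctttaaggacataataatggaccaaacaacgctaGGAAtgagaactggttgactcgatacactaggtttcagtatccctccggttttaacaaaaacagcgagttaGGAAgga

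The Etv5 window held 4 GGAA cores and the Etv1 window 2, while the window at the other start of each gene held 0 and 1. Such a core is common: 93.4% of the 32851 RefSeq windows of the same length held it on either strand, and so did 9 of the 12 member windows. The longer CCGGAA, searched on both strands, was in 12% of all windows and in 1 of the 12 member windows, that of Gabpa. Its match stands 92 to 87 bases before the Gabpa start. All 250 bases of that Gabpa window are annotated as exon of Atp5j or Gabpa. The match is printed with 10 bases on each side, a stretch at chr16:84835022-84835047, and with the complement TTCCGG in capitals.
Gabpa: gggtaagtgcTTCCGGgtccctcagc
CCGGAAGT was in 2.88% of all windows and in none of the 12 member windows. These matches describe letters only, and CCGGAA matches are also counted among the GGAA matches.

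Compared per length, the 10 members spanned a wide range in ESCs. Etv5 was the highest, with 55.2 RPKM ± 4.96 (SD, n = 3), followed by Gabpa with 38.3 ± 1.39 and Etv4 with 35.8 ± 6.33, and the ranges of Gabpa and Etv4 overlapped. Ets2 (9.02 ± 0.437) and Elk1 (8.87 ± 0.590) overlapped each other as well. Below them, without overlap between neighbours, came Elf1 (3.68 ± 0.144), Etv1 (1.19 ± 0.24), Ets1 (0.626 ± 0.141), Erg (0.113 ± 0.0369) and Fli1, which had no count in any ESC library. In NPs Ets2 led with 16.9 RPKM ± 1.93, ahead of Gabpa with 12.7 ± 1.83, and Elf1, Elk1, Etv4, Ets1 and Etv5 followed with 5.27 to 1.69, each overlapping the next. In TET TKO ESCs Etv4 (52.6 ± 31.7), Etv5 (33.6 ± 7.01) and Gabpa (33.5 ± 2.82) were again on top, with overlapping ranges.

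With the study's limit for a high level, a mean log2(1 + RPKM) of at least 1, 7 of the 10 members were high in each group. Ets2, Etv4, Etv5, Elk1, Gabpa and Elf1 were high in all 3 groups. Etv1 was high in ESCs alone, with a mean of 1.13 against 0.64 in NPs and 0.45 in TET TKO ESCs. Ets1 was high in NPs (1.83) and TET TKO ESCs (1.21) and not in ESCs (0.70).

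**Figure D1:**
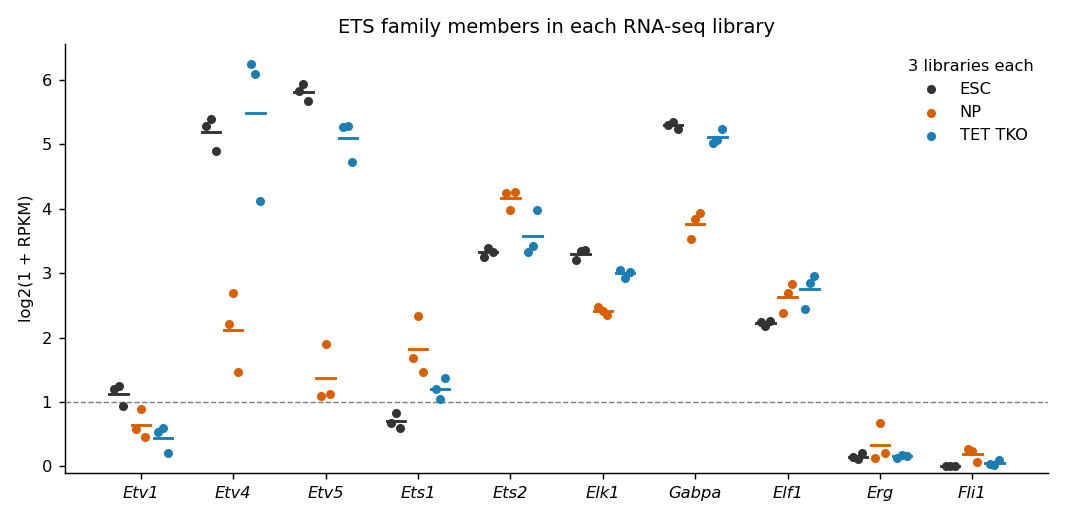
Levels of the 10 ETS members as log2(1 + RPKM) on the vertical axis, with 1 point per RNA-seq library, a bar at the mean of each group of 3 and a dashed line at the limit for a high level. Etv4 and Etv5 lie far lower in the NP libraries than in the ESC libraries, Ets1 lies higher, and Fli1 sits at 0 in ESCs.

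The make-up of the transcripts of these 10 members therefore differed between ESCs and NPs. The RPKM of the 10 members summed to 153 ± 12.8 in ESCs and 146 ± 31.7 in TET TKO ESCs, but to 48.2 ± 3.29 in NPs (SD, n = 3 each). The PEA3 group supplied 60.2% ± 2.63 of that sum in ESCs and 12.1% ± 5.33 in NPs. Gabpa held 25.1% ± 1.23 in ESCs and 26.3% ± 3.04 in NPs, while Ets2 held 5.93% ± 0.512 and 35.4% ± 6.04. In TET TKO ESCs the PEA3 group supplied 57.1% ± 16.2, with 67.7% as the highest and 38.5% as the lowest library. Of the summed RPKM of all 26 ETS genes, the PEA3 group held 32.8% ± 1.03 in ESCs and 4.99% ± 2.19 in NPs. Ets2 held 3.23% ± 0.323 and 14.8% ± 2.81 of that larger sum.

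**Figure D2:**
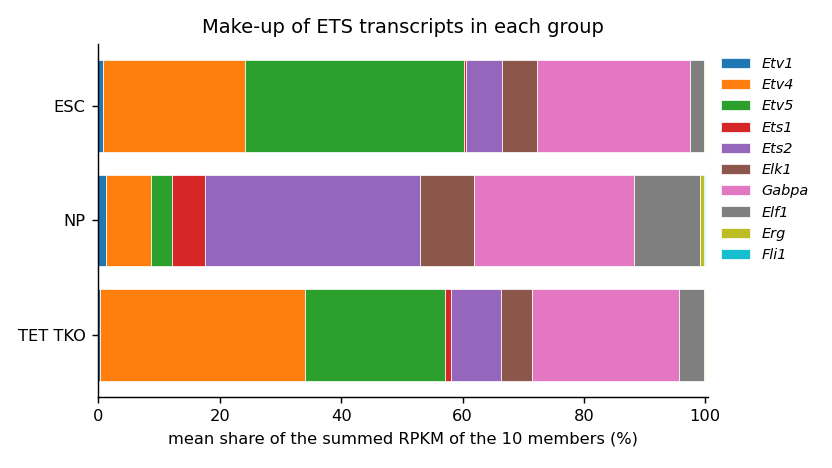
Mean share of the summed RPKM of the 10 members that each gene supplied, in percent on the horizontal axis, for the 3 libraries of each group. Etv4 and Etv5 fill most of the ESC and TET TKO bars, and Ets2 and Gabpa fill most of the NP bar.

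To ask which members changed on differentiation, NPs were compared with ESCs by edgeR's quasi-likelihood test over all genes with at least 1 RPKM in a library, and the study's limits defined a call, which required both a 3-fold difference and, after Benjamini-Hochberg adjustment, a p below 0.001. Ets1 rose, and Etv4, Etv5 and Gabpa fell. Thus 4 of the 10 members, 8 of which were tested, were called. Of the 15197 genes tested, 22.4% were called, 12.4% as risen and 9.98% as fallen. DESeq2 also called 4 members, where it called 25.6% of genes, and all 8 tested members had an unadjusted p under 0.05, as did 67.4% of genes. Ets2 and Elk1 passed the limit on p at less than 3-fold, as part of 33.9% of genes that passed it at any fold, and Etv1 and Elf1 did not pass it. The RPKM of all 8 tested members did not overlap between the groups, as was true of 71.9% of the genes tested. The median log2 fold change was -1.04 over the 8 tested members and 0.04 over all genes tested.

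Etv5, a PEA3 activator that sustains gene programmes downstream of FGF receptors, showed the largest fall. Its 4103 bp of exons, at chr16:22381309-22439719, gave 55.5, 60.0 and 50.1 RPKM in ESCs and 1.14, 2.74 and 1.19 in NPs. All NP libraries were far below all ESC libraries, with NP 2 the highest of the 3. The log2 fold change was -5.03 ± 0.33 (SE), a 32.7-fold fall (edgeR, adjusted p = 5.98e-06).

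Etv4, the PEA3 founding member at chr11:101769742-101785371, gave 37.9, 40.9 and 28.7 RPKM in ESCs and 3.64, 5.47 and 1.75 in NPs. The groups did not overlap, and NP 2 was again highest. Its log2 fold change was -3.31 ± 0.36 (edgeR, adjusted p = 7.76e-05). Etv1, the other PEA3 gene, which is also known for its role in neuron identity, gave 1.30, 1.37 and 0.921 RPKM in ESCs and 0.494, 0.863 and 0.373 in NPs. Its difference of -1.06 ± 0.32 on the log2 scale did not pass the limit (edgeR, adjusted p = 0.0173).

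Ets1, the founding member of the family and a partner of AP-1 and RUNX proteins, was the 1 member that rose. It lies at chr9:32636221-32757820 and gave 0.588, 0.783 and 0.509 RPKM in ESCs (106, 145 and 106 counts) and 2.21, 4.05 and 1.76 in NPs (400, 834 and 345 counts). NP 2 stood above the other NP libraries, which themselves stood above every ESC library. The log2 fold change was 2.09 ± 0.33 (edgeR, adjusted p = 0.000633). This call did not hold without ESC 1, ESC 2, ESC 3 or NP 1, where the adjusted p was 0.00385, 0.0016, 0.00425 and 0.00193.

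Ets2, the close paralog of Ets1 and likewise a substrate of ERK, gave 8.56, 9.43 and 9.08 RPKM in ESCs and 17.9, 14.7 and 18.2 in NPs. All NP libraries were higher, with a log2 difference of 0.91 ± 0.13 (edgeR, adjusted p = 0.000383), under the 3-fold limit. Here NP 2 was the lowest NP library, unlike for Ets1 and the PEA3 genes.

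Gabpa, the ETS subunit of the GA-binding protein, which pairs with a GABPB subunit, gave 38.3, 39.7 and 36.9 RPKM in ESCs and 10.6, 13.3 and 14.2 in NPs. The groups were far apart, and the log2 fold change was -1.59 ± 0.13 (edgeR, adjusted p = 1.83e-05), a 3.02-fold fall that barely passed the limit on fold. It lay under that limit without NP 1 (-1.48), without ESC 2 (-1.57) and with library sizes alone (-1.52). Of the 5687 exon bases of Gabpa, at chr16:84834925-84863779, 6.98% are shared with Atp5j on the opposite strand, and the counting did not use strand.

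Elk1, a ternary complex factor that binds with SRF at early response genes, gave 8.19, 9.18 and 9.24 RPKM in ESCs and 4.54, 4.35 and 4.11 in NPs. The NP libraries lay close together and below every ESC library, with a log2 difference of -1.03 ± 0.13 (edgeR, adjusted p = 0.000145). Elf1, a member first known from lymphoid and blood cells, gave 3.74, 3.51 and 3.78 RPKM in ESCs and 4.23, 5.43 and 6.14 in NPs. Its difference of 0.52 ± 0.18 did not pass the limit (edgeR, adjusted p = 0.0342). Elk1 and Elf1 share 1.41% and 1.74% of their exon bases with a neighbouring gene.

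Fli1 and Erg, paralogs that drive endothelial and blood stem cell genes, did not reach 1 RPKM in any library and were not tested. Fli1 had 0 counts in each ESC library and 15, 15 and 4 in NPs. Set against a floor of 3 counts over the 3 ESC libraries, the NP level of 0.532 CPM (counts scaled to library size) was at least 11.7-fold higher. In TET TKO ESCs Fli1 had 8, 5 and 20 counts, and at 0.128 CPM it was at least 2.82-fold higher than the same floor. Erg had 8, 6 and 13 counts in ESCs and 7, 50 and 13 in NPs, and the deeper TET TKO libraries gave 24, 33 and 37. NP 2 alone was high, and the groups overlapped.

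NP 2 was the highest NP library for Etv1, Etv4, Etv5, Ets1 and Erg. It also had the highest sum of the 5 fibroblast markers (37.3 RPKM against 19.0 and 3.51) and of the 5 endothelial markers (2.90 against 2.09 and 0.846), and the lowest sum of the 6 neural progenitor markers (109 against 173 and 139). Pecam1 and Tek, which ESCs also express, were among those highest in NP 2, whereas Cdh5 was at 0.514, 0.352 and 0.154 RPKM in NPs 1, 2 and 3. Of the 7 pluripotency markers, 5 were highest in NP 2 as well: Pou5f1, for example, gave 0.94, 1.85 and 0.48 RPKM, Nanog 0.879, 1.56 and 0.346, and Zfp42 0.324, 1.57 and 0.459, while Klf4 and Sox2 were lowest there. The part of such cells in the ETS levels was not tested. Among the ESC libraries, ESC 2 was likewise the highest for Etv1, Etv4, Etv5 and Ets1 (1.37, 40.9, 60.0 and 0.783 RPKM), but not for Erg.

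**Figure D3:**
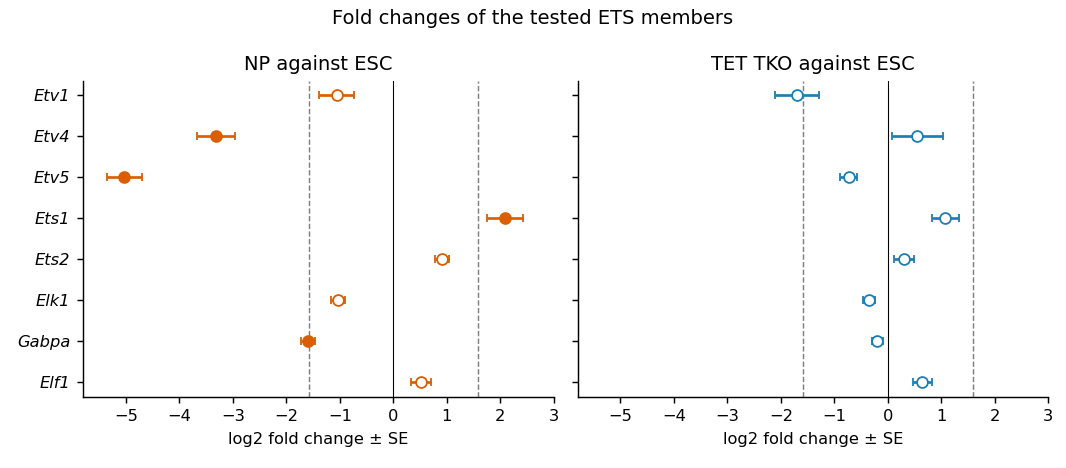
Log2 fold changes of the 8 tested members with their standard errors, NPs against ESCs on the left and TET TKO ESCs against ESCs on the right. Filled points were called, dashed lines mark a 3-fold change, and only the NP panel has filled points (Etv4, Etv5, Ets1 and Gabpa).

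The second comparison asked whether ETS levels differ in cells without TET proteins. No member was called in TET TKO ESCs by edgeR (0 of 8 tested), where 2.31% of 13939 genes were called, 1.1% as risen and 1.21% as fallen. None passed the limit on p at any fold, which 3.84% of genes did. At an unadjusted p under 0.05 there were 5 of 8 members, beside 46.5% of all genes, and DESeq2 called 1, Etv1, beside 6.53% of genes. The RPKM of 6 of the 8 did not overlap between the groups, as in 51.8% of genes. This comparison uses the same 3 ESC libraries as the first, so the 2 are not independent. The median log2 fold change was 0.05 over the 8 members and 0.12 over all genes tested. The latter was -0.05 with library sizes alone and 0.01 in DESeq2, so that differences of this size depend on the scaling.

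Etv1 was lower in each TET TKO library, with 0.442, 0.516 and 0.154 RPKM against 1.30, 1.37 and 0.921 in ESCs. Its log2 difference of -1.70 ± 0.42 missed the limit in edgeR (adjusted p = 0.0177) and passed it in DESeq2 (-1.82, adjusted p = 7.85e-05). Etv5 gave 37.5, 37.8 and 25.5 RPKM, below all ESC libraries, with a log2 difference of -0.73 ± 0.16 (edgeR, adjusted p = 0.0116).

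Etv4 split the TET TKO libraries. It gave 74.8 and 66.8 RPKM in TET TKO 1 and 2, above the ESC libraries, and 16.3 in TET TKO 3, below them. The log2 difference over all 3 was 0.55 ± 0.48 (edgeR, adjusted p = 0.403), and without TET TKO 3 it was 0.97 (adjusted p = 0.00404). Etv1 and Etv5 were also lowest in TET TKO 3. Among the ESC libraries, ESC 3 was likewise the lowest for Etv1, Etv4 and Etv5, with 0.921, 28.7 and 50.1 RPKM. NP 3 was the lowest NP library for Etv1 and Etv4, but not for Etv5.

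Ets1 was higher than in ESCs in every TET TKO library, with 1.30, 1.06 and 1.6 RPKM, and its log2 difference of 1.07 ± 0.25 did not pass the limit (edgeR, adjusted p = 0.0130). Ets2 gave 9.07, 9.66 and 14.7 RPKM, so that TET TKO 1 lay within the ESC range and TET TKO 3 well above it. Its log2 difference was 0.30 ± 0.19. Elf1 gave 4.46, 6.17 and 6.73 RPKM, all above the ESC libraries, with a log2 difference of 0.64 ± 0.18 (edgeR, adjusted p = 0.0272).

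Elk1 gave 7.30, 6.62 and 7.13 RPKM in TET TKO ESCs (-0.35 ± 0.11 on the log2 scale, edgeR adjusted p = 0.0411). Gabpa gave 31.4, 32.4 and 36.7 (-0.20 ± 0.10, adjusted p = 0.140). Both were below all ESC libraries, by 1.27-fold and 1.15-fold on average.

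The other 16 ETS genes were examined with the same fits. In NPs 4 of them fell, none rose, 2 passed the limit on p alone, 4 did not pass it and 6 were not tested, where 9.98% of all genes tested fell and 12.4% rose. Spic, a relative of PU.1 known in macrophages, had 170, 190 and 211 counts in ESCs and 1, 9 and 1 in NPs. Etv2, an inducer of blood and endothelial fates, had 46, 44 and 43 counts in ESCs and 1, 4 and 3 in NPs. Elf3, an epithelial factor, gave 30.0, 32.0 and 29.8 RPKM in ESCs and 8.96, 9.35 and 3.72 in NPs. Erf, a repressor that ERK removes from the nucleus, gave 69.7, 75.7 and 50.6 RPKM in ESCs, on average above every one of the 10 members although its range overlapped that of Etv5, and 22.6, 22.9 and 16.7 in NPs. Their log2 fold changes were -5.69 ± 0.57, -4.03 ± 0.46, -2.07 ± 0.30 and -1.66 ± 0.18 (edgeR, adjusted p = 5e-05, 9.99e-05, 0.000401 and 8.1e-05). The call of Elf3 did not hold without any 1 ESC library or NP 1, and that of Erf did not hold without ESC 2 or NP 3 or with library sizes alone, where its log2 fold change was -1.58. Elf2 and Elk4, with log2 differences of 0.92 and 0.86, passed the limit on p alone. In TET TKO ESCs none of the 10 tested was called by edgeR, 4 had an unadjusted p under 0.05 beside 46.5% of all genes, and DESeq2 called 1, Spic (log2 fold change -1.67).

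The genes that act on the PEA3 group were not called in either comparison, beside 22.4% of all genes tested in NPs and 2.31% in TET TKO ESCs. Cic, the repressor that holds PEA3 genes silent until ERK is active, gave 26.2, 27.5 and 26.8 RPKM in ESCs and 28.4, 19.1 and 17.0 in NPs. Its partner gene Atxn1l differed by 0.90 on the log2 scale in NPs, under the 3-fold limit, and Rfwd2 and Det1, which encode parts of a ubiquitin ligase for PEA3 proteins, did not pass the limit on p.

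Of the 16 genes of the ERK cascade from receptor to kinase, 1 rose in NPs and none fell, beside 12.4% and 9.98% of all genes tested. Fgfr2, an FGF receptor, went from 1.5, 1.4 and 1.45 RPKM to 16.9, 17.4 and 18.7 (log2 fold change 3.61 ± 0.12). None was called in TET TKO ESCs, beside 2.31% of all genes. The 16 feedback and early response genes of ERK split in NPs, where 2 rose and 3 fell with a median of -0.01 over the list. Of all genes tested in NPs, 12.4% rose and 9.98% fell. Spry4, a feedback inhibitor of receptor signalling, gave 45.5, 45.0 and 33.6 RPKM in ESCs and 0.327, 0.556 and 0.235 in NPs (-6.79 ± 0.29). Spry2 fell by 2.88 ± 0.28, and Egr1 fell by 1.59 ± 0.24, which is right at the 3-fold limit. With library sizes alone, or with all 3 groups in the fit, 4 of the 5 calls were left. Dusp4 and Dusp5, nuclear ERK phosphatases, rose by 2.57 ± 0.32 and 2.25 ± 0.24, and Dusp6, the cytoplasmic one, gave 13.1, 14.0 and 8.99 RPKM against 14.3, 24.3 and 12.3. Without ESC 1 or ESC 3, Dusp4 missed the limit on p and 3 of the 5 calls were left.

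In TET TKO ESCs 2 of these 16 genes rose, again Dusp4 (2.08 ± 0.14) and Dusp5 (1.69 ± 0.18), beside 1.1% of all genes tested. Neither call held without any 1 ESC library. That of Dusp5 did not hold without any 1 TET TKO library, with library sizes alone or with DESeq2 either. Spry4 gave 44.6, 22.9 and 4.55 RPKM in TET TKO 1, 2 and 3. Its lowest library was thus the one in which Etv1, Etv4 and Etv5 were lowest, while Dusp4 and Dusp5 were above every ESC library in all 3.

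**Figure D4:**
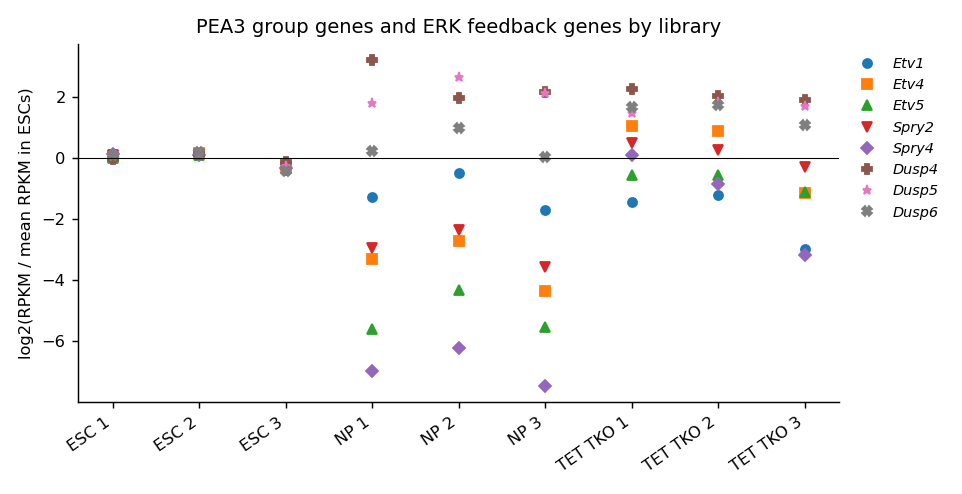
Level of the PEA3 group genes and of ERK feedback genes in each of the 9 libraries, as log2 of the RPKM over the mean RPKM in ESCs. Etv4, Etv5, Spry2 and Spry4 lie far below 0 in NPs and Dusp4 and Dusp5 above it, and in TET TKO 3 Etv1, Etv4 and Spry4 lie below the other TET TKO libraries.

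Of the 14 partners of ETS proteins 12 were tested in NPs, where 2 rose and none fell, a share near the 12.4% of all genes that rose. Jun, the AP-1 subunit that can bind beside Ets1, went from 3.58, 3.89 and 3.10 RPKM to 38.2, 34.8 and 31.4 (3.30 ± 0.14). Pax5, which recruits Ets1 in B cells, went from 0.149, 0.150 and 0.404 to 3.32, 1.53 and 2.33 (3.34 ± 0.46), a call that did not hold without ESC 1, ESC 2, NP 1 or NP 3. Gabpb1, Gabpb2 and Srf were not called. None of the 10 tested was called in TET TKO ESCs. Of the 5 mitochondrial genes known as Gabpa targets, none was called in NPs (median log2 fold change 0.02), where Gabpa itself fell, and none in TET TKO ESCs. The shares of all genes called were 22.4% and 2.31%.

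The 14 endothelial and blood genes are those among which Fli1 and Erg have their best known targets. By edgeR they included 4 that fell in NPs, none that rose and 6 that were not tested, beside 9.98% of all genes that fell. Pecam1, an adhesion protein that ESCs also carry, gave 24.4, 23.0 and 36.5 RPKM in ESCs and 0.407, 0.799 and 0.229 in NPs. Gata1 (-5.53 ± 0.63), Vwf (-4.64 ± 0.36) and Tek fell as well. None was called in TET TKO ESCs by edgeR. Gata2 was higher in NPs (3.81 ± 0.74, edgeR adjusted p = 0.00192) and in TET TKO ESCs (3.34 ± 0.48, edgeR adjusted p = 0.00206), without a call by edgeR. DESeq2 called Gata2 as risen in both (adjusted p = 3.05e-08 and 7.8e-11), and called 6 genes of the list in NPs.

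The 5 genes whose log2(1 + CPM) over the 9 libraries was most like that of Ets1, among 15505 genes with at least 1 RPKM in a library, were BC034090, Wnt9a and Tgfbr2 (Pearson's r of 0.981 each), Lhx2 (0.973) and Ppic (0.971). The 9 libraries fall into 3 groups, so these values describe group levels for the most part. Wnt9a, for example, gave 0.466, 0.591 and 0.513 RPKM among the ESC libraries, 6.4, 11.3 and 2.8 among the NP libraries and 2.08, 1.86 and 3.34 among the TET TKO libraries.

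The methylation reporter, Hi-TransMet, tested an ETS motif directly. Each cell of a pool carried the bacterial fragment FR1 at the same genomic site with a wild type (WT) motif or its scrambled form (Sc), inserted unmethylated (−SssI) or after methylation by the M.SssI enzyme (+SssI), and reads of bisulfite-converted DNA gave methylation at 18 CpGs upstream, 1 in the motif and 5 downstream. The ESC +SssI, NP −SssI and TET TKO +SssI pools were used, 1 per condition, so Fisher's exact tests on reads compare these pools and not conditions, and intervals cover counting error only. The paper assigns the motif to ETS1. Whether ETS1 or another ETS protein bound it was not measured here.

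Under +SssI in ESCs the WT fragment was at 62.8% and the Sc fragment at 73.4%, a difference of -10.6 points (-18.6 to -2.68), over 24 CpGs with 82 to 842 reads each. A hypomethylated region (HMR, at least 3 neighbouring CpGs over more than 50 bp, each at least 10 points lower in WT with an adjusted p under 0.05) ran from -291 to -235 bp, with 5 CpGs at 51.8% against 79.3%. An HMR was found for 16 of the 28 motif pairs in this pool, and the ETS difference ranked 16 from the lowest, near the median of -11.9 points over all pairs. The CpG in the motif was at 76.6% against 94.8%, while the downstream CpGs were at 69.9% against 55.2%. The CpGs past the test numbered 16 of 24, beside 67.5% of all CpGs of the 28 motif pairs, so that single CpGs differed in most constructs. The reads came from numbered columns, called runs here, that held WT and Sc unequally. The labels do not say whether a run is a biological or a technical replicate, and the study pooled both kinds. Where WT and Sc were compared inside each run with 10 or more reads of either, the difference was 4 points, with 11.2 in run 5 over 24 CpGs and -24.0 in run 4 over 6 CpGs, and neither run gave an HMR. These runs thus pointed in opposite directions, and the sign of the summed difference was not kept within runs. Run 4 held 0 upstream Sc reads, so it could not have shown the upstream HMR.

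In NPs, where only the −SssI pool was used, the WT fragment was the more methylated and had no HMR, whereas 10 of the 28 motif pairs had one. Its difference ranked 27 from the lowest. It was at 85.7% against 78.8%, 6.84 points higher (1.40 to 12.3), with 8.09, 12.8 and 15.3 points in the 3 runs that held both. The upstream CpGs were at 87.0% against 77.6% and the downstream CpGs at 80.8% against 83.2%. The CpGs past the test numbered 17 of 24, beside 63.8% of all. Against the mean of all Sc fragments the WT fragment was lower, by -2.09 points. The NP and ESC pools differed in SssI treatment as well as in cell state, and no comparison between them was made.

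In TET TKO ESCs under +SssI the ETS motif had the lowest value of the 28 motif pairs compared. These pairs include neither FOXD3 nor OCT4 alone. The paper names ETS1 itself, with FOXD3 and GATA, among the motifs with lower methylation in these cells. It adds that a direct effect of ETS1 or GATA factors is hard to establish, because their expression in ESCs is very low. In its in vitro assay, ETS1 reduced the activity of the maintenance methyltransferase DNMT1, though less than SOX2 did. The WT fragment was at 68.0% and the Sc fragment at 95.4%, a difference of -27.4 points (-34.8 to -20.1), and 19 of 24 CpGs passed the test, beside 48.3% of all. As a share of methylated calls, in which CpGs with more reads weigh more, the difference was -16.7 points, and the rank was taken only on the mean over CpGs. The upstream CpGs were at 59.6% against 94.2%, the motif CpG at 80.2% against 98.0% and the downstream CpGs at 95.7% against 99.1%. An HMR of 15 CpGs ran from -264 to -84 bp, with 57.7% in WT and 97.0% in Sc, in a pool where 7 of the 28 motif pairs had an HMR. The upstream reads of both fragments, at most 110 and 65, came from 1 run. Over all 24 CpGs that run gave a difference of -27.6 points. In the other run with reads of both, which had no upstream reads, the difference over 6 CpGs was -2.31.

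**Figure D5:**
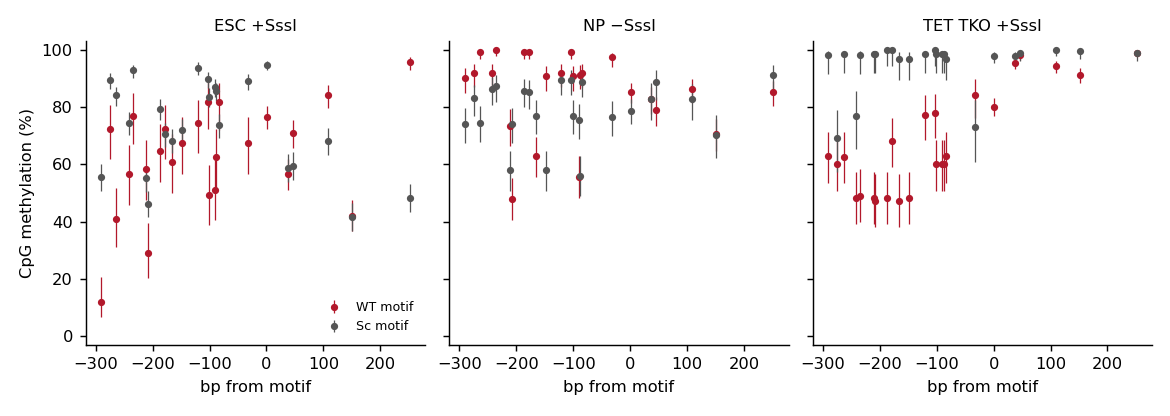
Methylation in percent at each CpG of the WT (red) and Sc (grey) ETS fragments against distance from the motif in bp, for the 3 pools, with 95% Wilson intervals. WT lies below Sc over most upstream CpGs in TET TKO ESCs and above it at most CpGs in the NP pool.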

How the data were processed

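RNA-seq and Hi-TransMet reads were processed by the authors. The RNA tables the authors deposited hold gene-level read counts from featureCounts 1.6.2, summed over exons of Ensembl 89 gene models (GRCm38) without strand, from a stranded kit, after Trimmomatic 0.38 and STAR 2.6.1b per the submitters' processing notes. For Hi-TransMet the authors deposited counts of reads and methylated reads after Bismark 0.20.0. They are given per CpG, construct and numbered column, and such a column is called a run here.

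Groups were taken from the GEO labels. Nothing in the labels says that replicates were separate cultures, so p-values measure the spread between these libraries. Counts were scaled by TMM and fitted with edgeR 4.0.16 (R 4.3.3), each group with ESCs, over genes with at least 1 RPKM in a library. Fisher tests used CpGs with at least 10 reads in both fragments, adjusted over all motifs of a pool, and intervals of a difference treat the CpGs of an amplicon as dependent. The scripts were checked on simulated data. DESeq2 1.42.0 and the other alternatives are given at the end.

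The members and lists were chosen with earlier results of these data known. Named are the members, up to 3 called genes per list and comparison by fold, all called ETS genes, Tet1 to Tet3 and the 5 genes most like Ets1. Genes named beyond this rule were chosen after their values were seen. In 2 Hi-TransMet tables (ESC −SssI and NP +SssI) the runs of 2 samples share a table and the column names do not say which is whose, so their 51 columns were left out, after values from them had been seen.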

Additional observations from a re-analysis of the deposited data

How the results depend on the processing

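No direction of a tested member turned over 104 refits of the NP comparison and 112 of the TET TKO comparison, and the call changed in 8 and 2 of them. Leaving out 1 library gave 2 to 4 called members in NPs (2 without ESC 2 or NP 1) and 0 in TET TKO ESCs, where the call of Etv1 appeared with DESeq2 (1 member) and with no filter on low counts (1 member). In NPs 3 members were called with library sizes alone and 5 with no filter or a fold limit of 2. Among the other ETS genes, 3 were called in NPs with library sizes alone, 8 with no filter, 2 with at least 10 counts in every library and 2 to 4 with a library left out, and in TET TKO ESCs 1 was called by DESeq2, 1 with no filter and 0 with a library left out. Over the 7 lists the number called in NPs went from 16 to 25 with no filter and 12 to 18 with a library left out, and in TET TKO ESCs from 2 to 1 with library sizes alone, 4 with no filter and 0 to 2 with a library left out. Among all genes, 322 were called in TET TKO ESCs, 910 by DESeq2, 1263 with no filter and 50 to 329 with a library left out, and in NPs 3408 and, with no filter, 5281. In each group 7 members were at a high level with library sizes alone and with any library left out, and 8 on log2(1 + CPM).

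The replicate numbers are shared between groups. Deviations of same-numbered libraries did not correlate in every pair (-0.123 to 0.009 for NPs, -0.08 to 0.306 for TET TKO ESCs), and the main fits did not pair the samples. With 3 libraries per group these values cannot decide whether the numbers pair them. With the replicate number as a block, 4 and 0 members were called, and 674 genes in TET TKO ESCs in place of 322.

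For the ETS construct, the ESC +SssI difference was 4 points within runs, and the NP −SssI difference was -2.09 against the mean of all Sc fragments. The TET TKO difference was -16.7 as a share of methylated calls. The causes were not tested. The alternatives planned for the ESC −SssI and NP +SssI pools were not run, because those tables were not used. Depth limits Fli1 and Erg, at most 50 counts in a library.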
